A study of Mus musculus with 3 samples.

Results

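The genes described here are the parts of the mouse major histocompatibility complex (MHC) class II pathway that aortic leukocytes used to build, load and switch on class II molecules. They are H2-Aa, H2-Ab1 and H2-Eb1, which encode chains of the peptide-presenting molecules; Cd74, which encodes the invariant chain; H2-DMa, H2-DMb1 and H2-DMb2, which encode the peptide-exchange factor H2-DM; H2-Oa and H2-Ob, which encode its modulator H2-O; and Ciita, which encodes the class II transactivator. They were chosen by name, and all 10 were found among the 32285 genes of the count matrices.

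Class II molecules carry peptides from the endosome to the cell surface, where CD4+ T cells read them. The invariant chain fills the groove of a new molecule and escorts it to the endosome, H2-DM then releases the remnant of the invariant chain and edits the peptides, and H2-O restrains H2-DM. CIITA does not bind DNA itself; it joins the RFX, CREB and NF-Y factors that sit on the X and Y boxes of these promoters, and its own transcription starts from different promoters in dendritic cells, in B cells and after interferon gamma. In the artery wall, dendritic cells, B cells and a portion of the macrophages carry class II, whereas mouse T cells and neutrophils do not.

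All 3 groups were ApoE-/- mice on the C57BL/6J background, a strain that develops atherosclerosis because it lacks apolipoprotein E. One group was the control (Ctrl), a second received homocysteine in the drinking water at 1.8 g/L for 4 weeks (HHcy), and another group ate a western diet (WD) for 4 weeks. Whole aortas with their adventitia were perfused and digested, live CD45+ cells were sorted, and each group gave 1 droplet library of 3′ transcript ends. The labels used here do not give the animals' sex or how many mice were pooled. Apoe, the deleted gene, was at 16.3 counts per 1000000 UMIs (CPM) in the control library and 19.3 in the western diet library but at 374 in the library labelled HHcy (1090, 1801 and 39368 UMIs), which goes against its label; that library is therefore called the library labelled HHcy throughout.

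The matrices held 7512, 9753 and 8557 barcodes with 66789257, 105180370 and 93164076 UMIs for the control library, the library labelled HHcy and the western diet library, an order kept below wherever 3 values stand together. After filters, 5221, 6006 and 5076 cells were used, and a UMI of Ptprc, the gene of CD45, was found in 93.3%, 93.2% and 90.4% of them. Barcodes with markers of more than 1 lineage, counted as doublets and removed, made up 13.5%, 26.4% and 24.4% of those that passed. Cell groups were rebuilt by clustering without the 10 genes and named from marker lists, so each subset name ends in "-like". With 1 library per group no difference between groups has a replicate check, no p-value is given, and every interval is a 95% interval that covers counting error only. Levels by cell group are CPM over the summed UMIs of its cells, so within a group of cells, fewer cells that express a gene and less of its RNA per cell cannot be told apart.

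Of the members, 8 lie within 224 kb of chromosome 17, at 34092340 to 34316674 in GRCm38, in the order H2-Oa, H2-DMa, H2-DMb2, H2-DMb1, H2-Ob, H2-Ab1, H2-Aa and H2-Eb1. H2-DMb2 (34143307 to 34151555) ends 1516 bases before H2-DMb1 (34153072 to 34160230) starts. Ciita lies on chromosome 16 (10480059 to 10528418). The promoter table used here (RefSeq, GRCm38.p6) matched 7 of the 10 members, H2-Aa, H2-Eb1, H2-DMa, H2-DMb1, H2-DMb2, H2-Oa and H2-Ob, and not H2-Ab1, Cd74 or Ciita. An X box was searched as AACNNTGANG or AACNNNTGANG and a Y box as ATTGG; these letters were chosen after the promoters had been looked at. An X box followed on the gene's strand by a Y box 10 to 40 bases later, within the 250 bases before the start, was present in 5 of the 7 and in 0.161% of all 32851 promoters. Searched on both strands, the pair was present in 0.237% of all promoters, an X box alone in 4.68% and a Y box alone in 33.8%. They are shown because the same pair of boxes stands before genes whose levels by cell type differed, as described below; capitals mark the X box and the Y box, and the strand is the gene's own. The H2-DMb1 stretch is cut after its X box.
H2-Aa, minus strand, chr17:34287852-34287917: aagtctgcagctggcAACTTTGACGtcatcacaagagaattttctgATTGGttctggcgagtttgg
H2-Eb1, plus strand, chr17:34305763-34305827: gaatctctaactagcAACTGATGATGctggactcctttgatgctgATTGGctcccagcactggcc
H2-DMb1, plus strand, chr17:34153089-34153118: tttacctagtAACTGATGATGctaggctga
H2-DMb2, plus strand, chr17:34145113-34145178: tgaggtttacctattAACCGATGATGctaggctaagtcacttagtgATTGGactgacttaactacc
H2-Ob, plus strand, chr17:34238805-34238867: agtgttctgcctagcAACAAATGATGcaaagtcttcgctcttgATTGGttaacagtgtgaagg

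Measured from the RefSeq start of each gene, the X box began 79 bases before H2-Aa, 89 before H2-Eb1, 92 before H2-DMb1, 121 before H2-DMb2 and 85 before H2-Ob. The spacing to the Y box was 21 bases in H2-Aa, 19 in H2-Eb1, 20 in both H2-DMb genes and 17 in H2-Ob. Counted from 1 at its 5′ end, the X box of H2-DMb2 differed from that of H2-DMb1 by T4C. The windows of H2-DMa and H2-Oa did not hold the pair, which says only that these letters were not in these windows. RefSeq starts H2-DMb1 and H2-DMb2 further downstream than the gene positions given above, which are from GENCODE, so both printed stretches lie inside the GENCODE genes, that of H2-DMb1 in an annotated 5′ UTR. A match of letters is a description, not a binding site or a cause.

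The peptide-presenting chains were highest in conventional dendritic cells and lower in macrophages, monocytes and B cells. H2-Aa, the alpha chain of I-A, was at 8930, 8703 and 9094 CPM in conventional dendritic cells (433, 262 and 378 cells), at 3012, 3482 and 3220 CPM in macrophages and monocytes (1902, 1061 and 2534 cells) and at 2897, 4101 and 3304 CPM in B cells (2213, 3650 and 1212 cells). T cells gave 191, 219 and 197 CPM and neutrophils 175, 180 and 229 CPM, both far below the other cells. Since neither cell type is known to make class II in mice, these values serve as a rough level that free RNA can give. That level was not the same in both for every member: Cd74 was at 679, 483 and 521 CPM in T cells and 412, 349 and 359 CPM in neutrophils, and H2-DMa at 31.0, 38.3 and 24.8 against 6.99, 10.5 and 15.4 CPM. Among 13 named cell groups, cDC2-like cells, the dendritic subset that mainly primes CD4+ T cells, were the highest for H2-Aa, H2-Ab1 and H2-Eb1 in every library, followed by cDC1-like cells in all 3. In cDC2-like cells H2-Aa reached 10938, 9638 and 10182 CPM, and in control this was 57.2 times the T cell level.

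**Figure D1:**
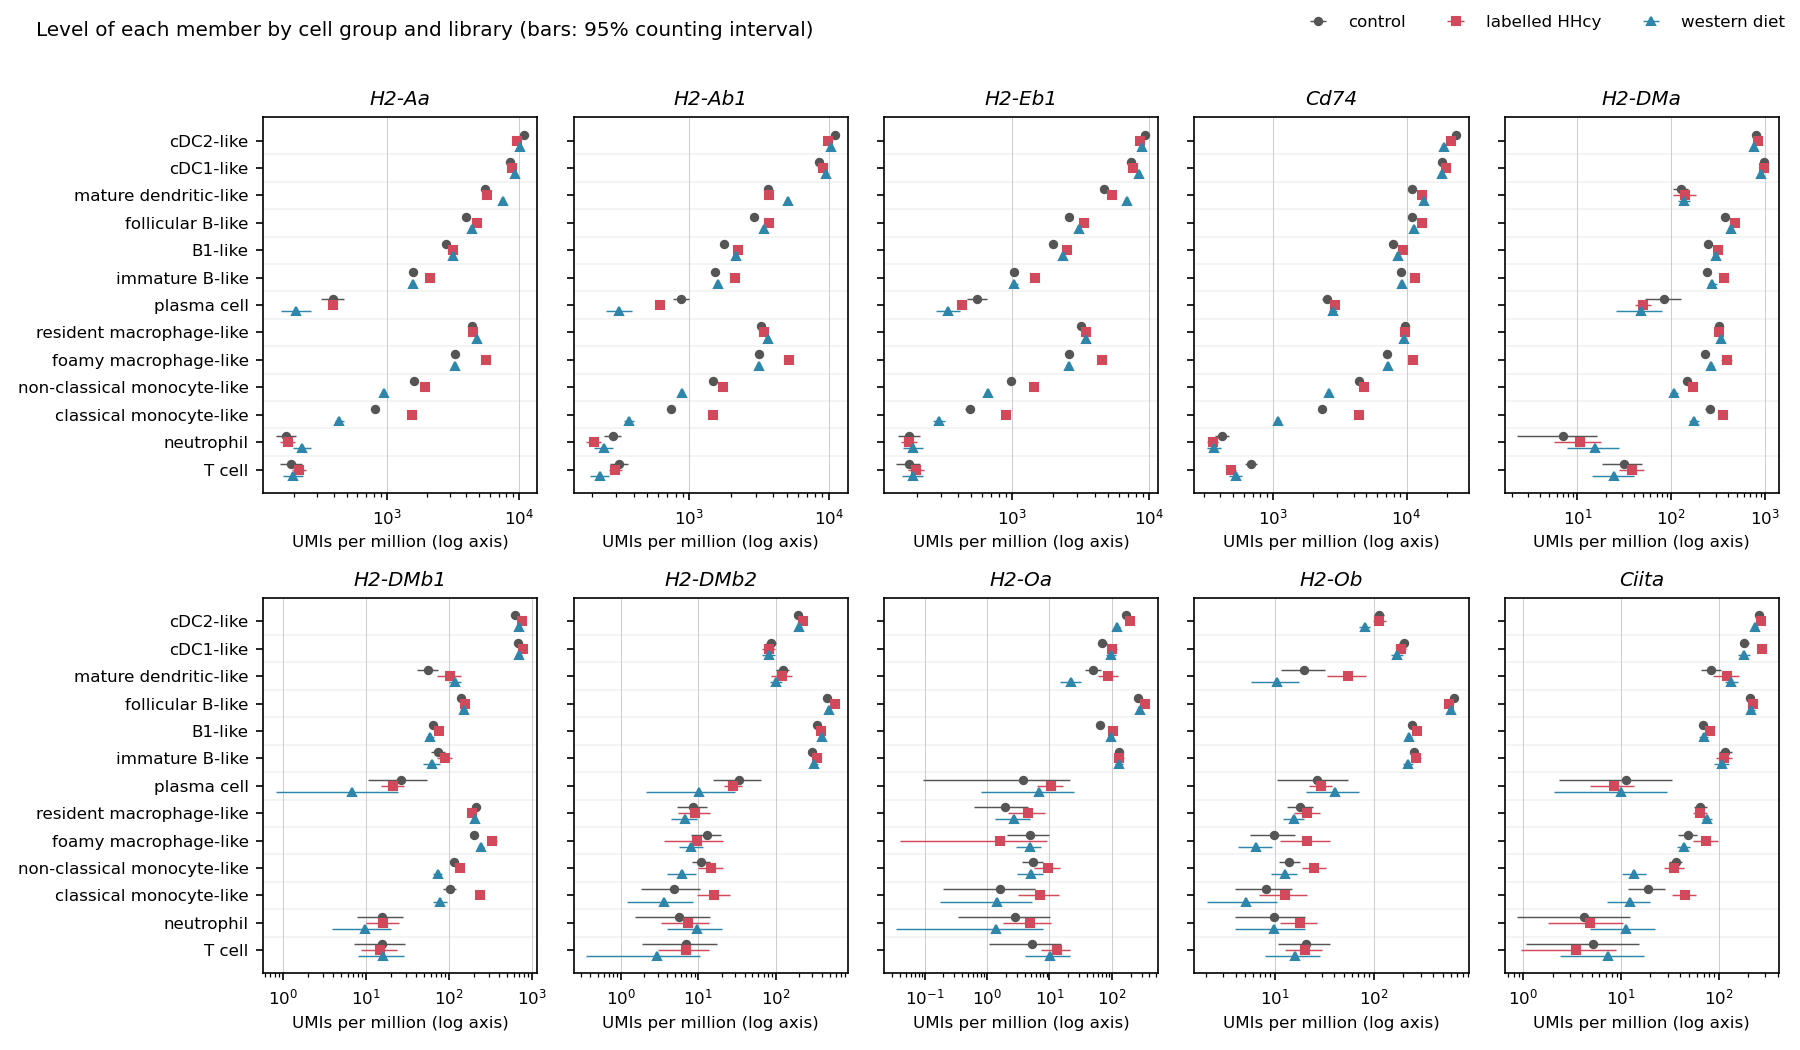
CPM (log axis) of each of the 10 genes in 13 cell groups, with circles for the control library, squares for the library labelled HHcy and triangles for the western diet library; bars are 95% counting intervals. H2-Aa, H2-Ab1, H2-Eb1 and Cd74 are highest in cDC2-like cells in all 3 libraries, and H2-DMb2, H2-Oa and H2-Ob in follicular B-like cells. T cells and neutrophils lie at the bottom for H2-Ab1, H2-Eb1 and Cd74. For H2-Oa and H2-Ob, classical monocyte-like cells lie below T cells in all 3 libraries.

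Within B cells, the order for the presenting chains was follicular, then B1-like, then immature in all 3 libraries. H2-Aa was at 3944, 4806 and 4411 CPM in follicular B-like cells, at 2802, 3158 and 3153 CPM in B1-like cells, a subset known for natural antibodies, and at 1592, 2107 and 1571 CPM in immature B-like cells. Plasma cells, which switch class II off as they mature, gave 393, 394 and 209 CPM from 13, 62 and 12 cells, and the western diet value lay within the interval of T cells (165 to 233 CPM). H2-Eb1, the I-E beta chain, followed the same order with 2588, 3325 and 3093 CPM in follicular, 1972, 2502 and 2364 CPM in B1-like and 1025, 1476 and 1034 CPM in immature B-like cells. No I-E alpha chain gene is among the 10 members, and C57BL/6 mice are known to lack one that works.

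Cd74, the invariant chain, encoded on chromosome 18, kept a high level in immature B-like cells, where the presenting chains were low, but not in all such cells. In immature B-like cells Cd74 was at 9032, 11618 and 9257 CPM, against 10968, 13029 and 11365 CPM in follicular B-like cells, and made up 68.5%, 67.0% and 68.8% of the summed UMIs of Cd74, H2-Aa, H2-Ab1 and H2-Eb1. The same share was 53.7%, 52.3% and 50.9% in follicular B-like cells and 42.8%, 43.8% and 40.0% in conventional dendritic cells. In classical monocyte-like cells it was 53.3%, 52.7% and 49.5%, and Cd74 was low there too, at 2335, 4381 and 1082 CPM. B1-like cells held less Cd74 than immature B-like cells in every library, at 7913, 9338 and 8574 CPM. Plasma cells held 2519, 2900 and 2797 CPM of Cd74 against 679, 483 and 521 CPM in T cells, so that Cd74 stood further above the T cell level than H2-Aa did. These shares set UMIs of different genes against each other and are read only across cell groups, since 3′ ends of different genes may be captured unequally.

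The H2-DM genes separated dendritic cells from B cells by which beta chain they used. H2-DMa, the alpha chain, and H2-DMb1 were highest, among the 13 named groups, in cDC1-like cells, the cross-presenting dendritic subset, in all 3 libraries (H2-DMa 989, 985 and 899 CPM; H2-DMb1 672, 771 and 699 CPM), although the intervals of H2-DMb1 overlapped those of cDC2-like cells in every library. H2-DMb2 was highest of these groups in follicular B-like cells with 463, 583 and 497 CPM, and stood at 143, 149 and 146 CPM in conventional dendritic cells and 17.3, 21.8 and 9.21 CPM in macrophages and monocytes. H2-DMb2 made up 81.5%, 80.3% and 82.4% of the H2-DMb1 and H2-DMb2 UMIs in B cells, 20.4%, 17.9% and 20.8% in conventional dendritic cells and 8.18%, 8.43% and 4.70% in macrophages and monocytes. The order B cell, dendritic cell, macrophage was thus the same in each library, with intervals that did not overlap. The last 500 bases of the annotated transcripts of H2-DMb1 and H2-DMb2 shared none of their 50-base words (0%), so reads from these ends can be told apart.

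Mature dendritic-like cells, which carry Ccr7, the receptor for migration to lymph nodes, had less H2-DM for their class II than the other named subsets. Per 100 UMIs of H2-Aa, H2-Ab1 and H2-Eb1 they held 2.199, 2.44 and 1.82 UMIs of the 3 H2-DM genes, against 5.20, 6.46 and 5.59 in cDC2-like and 7.14, 7.17 and 6.15 in cDC1-like cells. H2-DMa was at 127, 139 and 138 CPM there, while H2-Aa was still at 5552, 5742 and 7586 CPM. Their H2-DMb2 share was 69.3%, 54.3% and 46.2%, above the shares of 23.9%, 23.4% and 22.9% in cDC2-like cells. At the other end, classical monocyte-like cells held 17.7, 15.5 and 23.3 H2-DM UMIs per 100 and immature B-like cells 14.6, 14.1 and 15.6.

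Both H2-O genes were highest in follicular B-like cells among the 13 named groups and at background in macrophages and monocytes. H2-Ob, its beta chain, was at 657, 580 and 610 CPM in follicular B-like, 242, 272 and 228 CPM in B1-like and 256, 269 and 224 CPM in immature B-like cells. In cDC1-like cells H2-Ob was at 201, 189 and 173 CPM, and in cDC2-like cells at 113, 115 and 81.6 CPM. H2-Oa, the alpha chain, had the reverse order between these dendritic subsets, with 166, 194 and 123 CPM in cDC2-like and 70.1, 102 and 96.2 CPM in cDC1-like cells. In B cells H2-Oa was at 258, 339 and 282 CPM in follicular, 132, 132 and 130 CPM in immature and 65.6, 103 and 95.6 CPM in B1-like cells. H2-Oa in B1-like cells was thus below that of cDC2-like cells in every library, unlike H2-Ob. In macrophages and monocytes H2-Ob stood at 14.0, 21.9 and 11.9 CPM, beside 20.7, 20.03 and 16.0 CPM in T cells. H2-Oa stood at 3.99, 6.82 and 4.27 CPM, beside 5.17, 13.1 and 10.2 CPM in T cells, so both are read as background there. Of the summed H2-O and H2-DM UMIs, H2-O made up 48.3%, 43.0% and 45.2% in follicular B-like cells, 32.1%, 32.3% and 29.8% in B1-like cells and 13.9%, 14.1% and 11.3% in conventional dendritic cells.

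**Figure D2:**
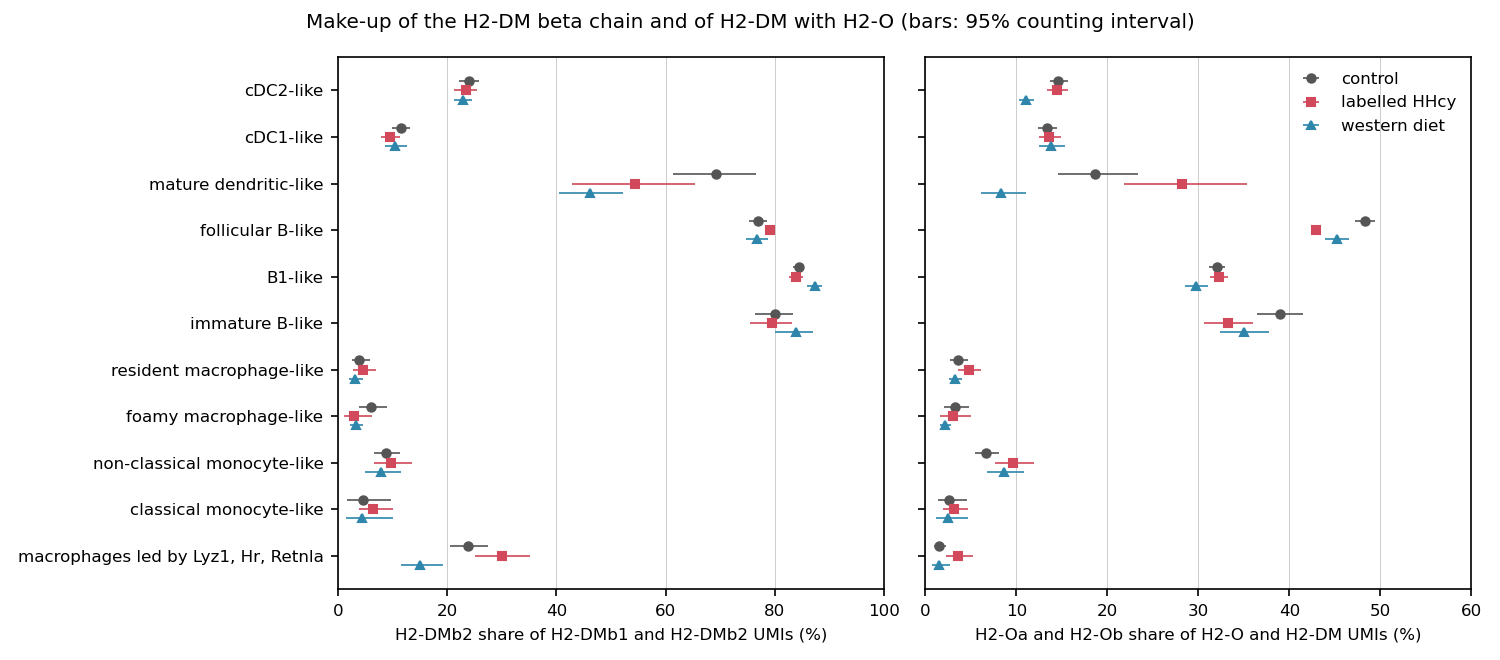
Left, the percentage of H2-DMb1 and H2-DMb2 UMIs that came from H2-DMb2; right, the percentage of H2-O and H2-DM UMIs that came from H2-O, by cell group and library, with 95% counting intervals. B cell groups lie above 76% on the left, and follicular B-like cells, at 43.0% to 48.3%, are highest on the right.

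Ciita, the transactivator, broadly followed the presenting chains across cell types, although at low counts and with exceptions that involved B cells. Its levels were 258, 268 and 235 CPM in cDC2-like cells, 208, 225 and 215 CPM in follicular B-like cells and 183, 278 and 181 CPM in cDC1-like cells. Of the values in the library labelled HHcy, the cDC1-like one was the highest, but its interval (252 to 307 CPM) overlapped that of cDC2-like cells (244 to 294 CPM). Below them came immature B-like cells (117, 114 and 107 CPM), mature dendritic-like cells (83.3, 120 and 134 CPM) and B1-like cells (69.2, 81.5 and 70.3 CPM). B1-like cells thus held less Ciita than immature B-like cells in every library while holding more H2-Aa. Resident macrophage-like cells were at 64.6, 64.0 and 75.3 CPM and foamy macrophage-like cells at 48.5, 74.3 and 43.5 CPM. Resident macrophage-like cells thus held less Ciita than follicular B-like cells in every library. Their H2-Aa was higher in control (4421 against 3944 CPM) and in the western diet library (4814 against 4411 CPM). In the library labelled HHcy their H2-Aa was lower, at 4466 against 4806 CPM.

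Monocytes stood lowest among the cells of the myeloid class that were named. Ciita was at 36.4, 34.9 and 13.7 CPM in non-classical and at 18.8, 44.8 and 12.4 CPM in classical monocyte-like cells, against 5.17, 3.48 and 7.29 CPM in T cells. In control, 9 of the 12 neighbouring pairs in this order of 13 groups had overlapping intervals, so only the broad steps hold beyond counting error. A Ciita UMI was found in 89.8%, 80.5% and 86.3% of cDC2-like cells and in 2.36%, 1.67% and 3.08% of T cells, at median depths of 14185, 14719.5 and 16853 against 3614, 5734 and 4388.5 UMIs. With every cell thinned to 1000 UMIs, the cDC2-like shares were 22.7%, 21.2% and 18.9% and the T cell shares 0.847%, 0% and 1.55%. The 3′ counts do not show from which promoter Ciita was transcribed.

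Within macrophages and monocytes, 1 unnamed cluster held about as much class II as conventional dendritic cells, and another held little above background. A cluster led by Mmp13, H2-M2 and Mmp12 (52, 52 and 25 cells) had 31160, 34162 and 26739 CPM of Cd74, above the 23373, 21671 and 19254 CPM of cDC2-like cells in every library. Its H2-DMa, at 463, 525 and 447 CPM, was below that of cDC2-like cells (812, 843 and 757 CPM). Its presenting chains summed to 26045, 30090 and 24953 CPM, beside 25285, 24964 and 25779 CPM in conventional dendritic cells. In cDC2-like cells they summed to 31346, 28146 and 29408 CPM, more than in this cluster except in the library labelled HHcy. A cluster led by Lyz1, Hr and Retnla (80, 44 and 46 cells) reached 997, 1002 and 838 CPM of H2-DMa, the level of cDC1-like cells, and was the one macrophage cluster with H2-DMb2 well above the others, at 194, 296 and 147 CPM. Its presenting chains summed to 17838, 17696 and 17172 CPM, below conventional dendritic cells in every library. A cluster led by Prg4, Alox15 and Saa3 (108, 71 and 108 cells) held 303, 287 and 395 CPM of H2-Aa and 5.01, 8.29 and 6.41 CPM of Ciita. That Ciita level overlapped the T cell intervals, and its Cd74 was at 757, 841 and 842 CPM.

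Class II was spread unevenly between cells of one name in the macrophages and monocytes but was found in nearly all follicular B-like cells. With each cell thinned to 1000 UMIs and those UMIs of H2-Aa, H2-Ab1 and H2-Eb1 summed, 5 or more were found in 90.8%, 97.7% and 96.5% of follicular B-like cells and in 58.6%, 54.4% and 60.7% of resident macrophage-like cells, a group marked by Lyve1 and Folr2. In non-classical monocyte-like cells the share was 22.9%, 20.1% and 10.6%, and in classical monocyte-like cells 9.93%, 23.8% and 6.92% (15, 24 and 9 cells). For T cells it was 3.39%, 1.13% and 1.55%. No break was seen at the limit of 5: in resident macrophage-like cells 20, 10 and 18 cells had exactly 4 such UMIs and 15, 5 and 16 had exactly 5.

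**Figure D3:**
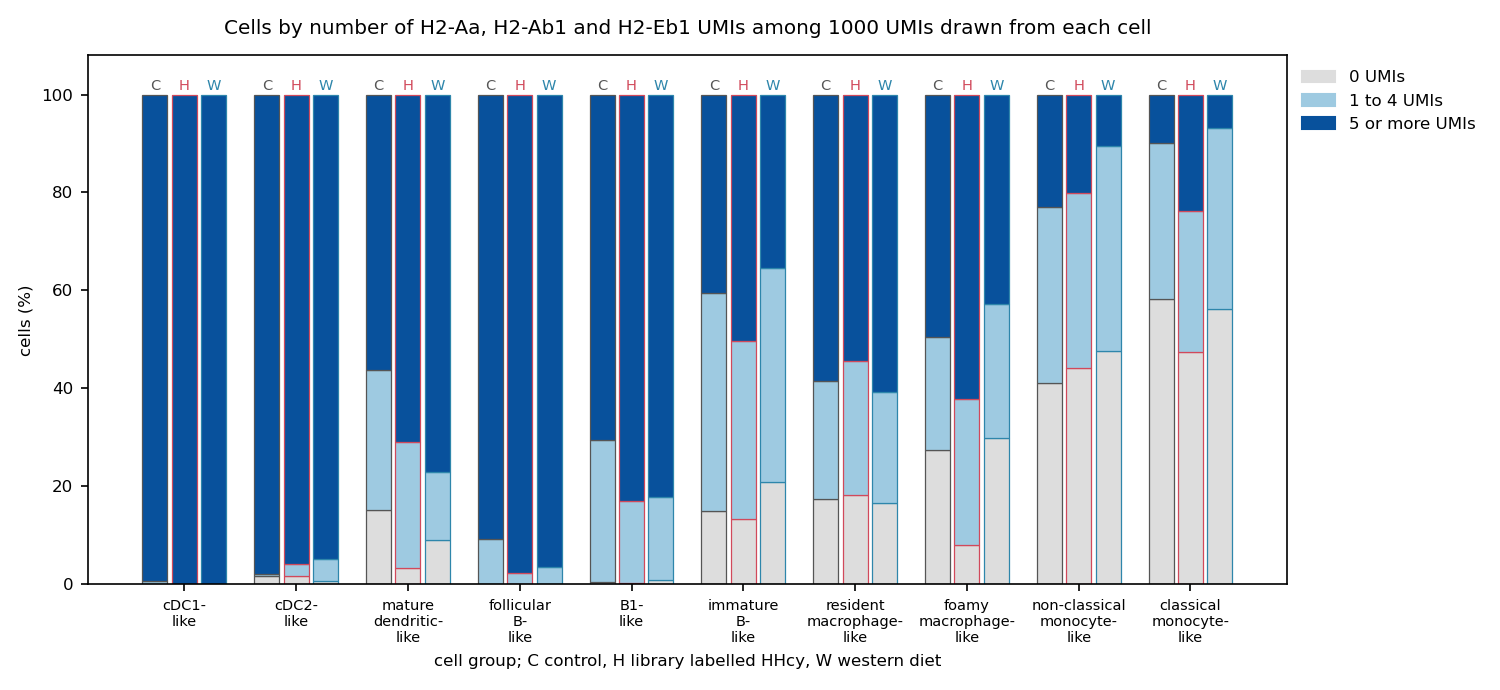
Percentage of cells with 0, 1 to 4, or 5 or more UMIs of H2-Aa, H2-Ab1 and H2-Eb1 among 1000 UMIs drawn from each cell, by cell group and library (C control, H library labelled HHcy, W western diet). Nearly all cDC1-like, cDC2-like and follicular B-like cells hold 5 or more, whereas 16.6% to 18.2% of resident macrophage-like and 41.0% to 47.6% of non-classical monocyte-like cells hold 0.

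Resident macrophage-like cells without these UMIs also had little of the other members. From cells with 0, to 1 to 4, to 5 or more presenting-chain UMIs, Ciita went from 6.12 to 23.1 to 103 CPM in control, from 10.6 to 11.6 to 115 CPM in that labelled HHcy and from 8.12 to 9.14 to 120 CPM in the western diet library. H2-DMa went from 81.6 to 132 to 498 CPM in control. Lyve1, the hyaluronan receptor that marks adventitial resident macrophages, ran the other way in all 3 libraries, from 1348 to 1094 to 546 CPM in control, from 1481 to 1185 to 817 CPM in that labelled HHcy and from 1256 to 1061 to 570 CPM in the western diet library. Ccr2, the chemokine receptor of monocyte-derived cells, went from 10.2 to 46.1 to 134 CPM in control. Cd163, another resident marker, was nearly flat at 1268, 1251 and 1198 CPM in control. Lyve1 and Cd163 are only part of the resident markers used, so resident character is not judged from them. The 12 B cell markers summed to 190, 192 and 212 CPM across the same bins in control. Their part in these values was not tested.

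Non-classical monocyte-like cells showed the same split. In the same bins of control, Ciita went from 1.59 to 19.0 to 108 CPM and Ccr2 from 77.2 to 106 to 234 CPM, while Treml4, a marker of the patrolling subset, went from 446 to 359 to 290 CPM. Of the dendritic markers, Flt3 reached 8.98 CPM and Zbtb46 3.74 CPM in the cells with 5 or more UMIs in control, against 101 and 27.8 CPM in cDC2-like cells of the same bin. Cd209a, a lectin of dendritic cells, had 24 UMIs in these 142 monocyte-like cells against 1847 in 181 cDC2-like cells. Flt3, Zbtb46 and Cd209a are only part of the 18 conventional dendritic markers used, so likeness to dendritic cells is not judged from them. Treml4 is likewise only part of the non-classical markers used.

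**Figure D4:**
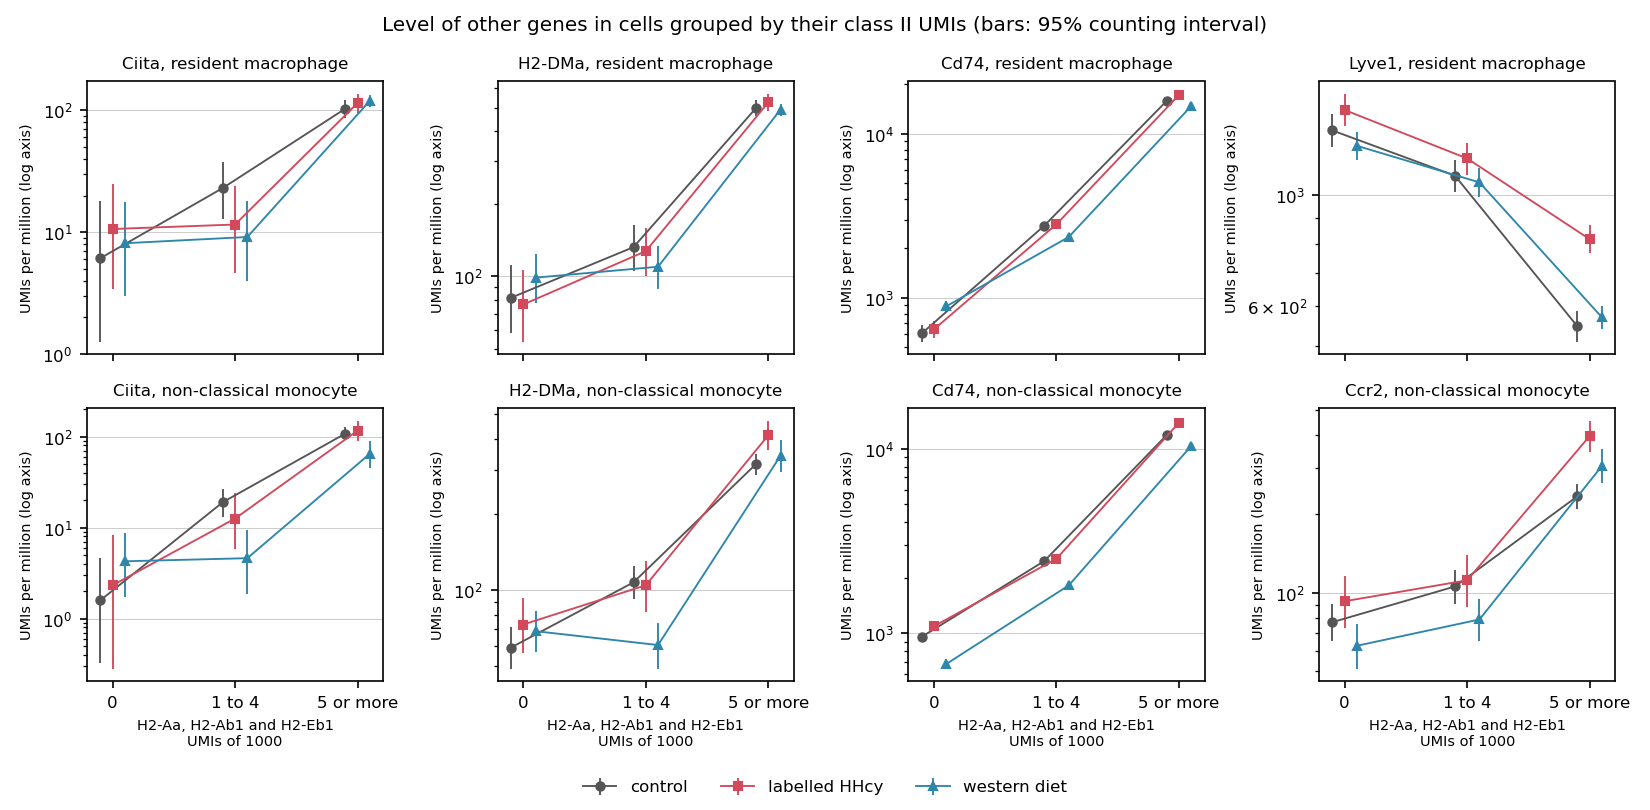
CPM (log axis) of Ciita, H2-DMa, Cd74 and a subset marker in resident macrophage-like cells (top) and non-classical monocyte-like cells (bottom), grouped by presenting-chain UMIs among 1000; bars are 95% counting intervals. Ciita is at or above 64.7 in the right-hand bin in every library and below 24 in the others, and Lyve1 falls from left to right in all 3 libraries.

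B cells held more of all 10 members in the library labelled HHcy than in control, and the gap was smaller once the mix of B cells was made equal. The log2 ratio to control was positive for all 10, from 0.43 for H2-Ob to 1.12 for H2-Oa, with a median of 0.58 (0.53 to 0.62) against -0.04 over all 11035 genes tested. A difference of 1.5-fold with 50 UMIs in the comparison was the limit for counting a gene, and 5 of the 10 (Ciita, H2-Oa, H2-DMa, H2-DMb1 and H2-Ab1) passed it as higher, against 4.03% of all genes. Follicular B-like cells made up 32.9% of B cells in control and 70.6% in the library labelled HHcy, and B1-like cells 47.0% and 16.1%. When the sub-clusters were weighted to the same mix, the median ratio was 0.26.

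Within the 3 named B cell subsets the members were still higher in the library labelled HHcy, by less. The median log2 ratio was 0.31 (0.26 to 0.34) in follicular B-like cells, where 0 of 10 passed 1.5-fold in either direction against 9.1% of all genes. H2-Ob stood apart from the other 9 there: it was lower, at 580 against 657 CPM, a log2 ratio of -0.18 (-0.24 to -0.12), while H2-Oa was higher, at 339 against 258 CPM, a log2 ratio of 0.39. In B1-like cells the median was 0.25 (0.19 to 0.37) and 1 of 10 passed 1.5-fold higher, H2-Oa at 103 against 65.6 CPM, with 2.38% of all genes. In immature B-like cells the median was 0.33 (0.18 to 0.47) and 1 of 10 passed, H2-DMa at 368 against 241 CPM, with 3.18% of all genes. The log2 ratio of Ciita was 0.12 (0.01 to 0.22) in follicular, below the median there, and 0.24 (0.08 to 0.39) in B1-like cells, and in immature B-like cells its interval of -0.40 to 0.31 held 0. Among unnamed B cell clusters, the cycling one led by Pclaf and Mki67 (63 against 66 cells) had a median of 0.64 (0.49 to 0.78), as large as the whole class, and 5 of 10 passed as higher against 4.83% of all genes. Those led by Egr2 and by Sspn had medians of 0.14 (-0.06 to 0.42) and 0.20 (-0.02 to 0.31).

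Against control, B cells of the western diet library had a median log2 ratio of 0.21 (0.17 to 0.29), and 0 of 10 members passed 1.5-fold in either direction, as did 5.5% of all genes. The largest ratio was that of H2-Oa, 158 against 115 CPM, a log2 ratio of 0.45. Within subsets the medians were 0.20 in B1-like, 0.12 in follicular and -0.0029 in immature B-like cells, where all 10 intervals held 0. The comparisons of both libraries share the control, so their likeness is not independent.

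Conventional dendritic cells, taken as a whole, had medians near 0 in both comparisons. In the library labelled HHcy the median log2 ratio of the members to control was 0.06 (-0.01 to 0.17), and 0 of 10 passed 1.5-fold in either direction against 9.72% of all genes. In the western diet library the median was -0.03 (-0.13 to 0.03) and 1 of 10 passed as lower, H2-Ob at 83.2 against 131 CPM, a log2 ratio of -0.65 (-0.81 to -0.49), with 5.4% of all genes. The mix of dendritic subsets also differed. The cDC1-like cells, which hold more H2-Ob than cDC2-like cells, made up 30.9% of dendritic cells in control and 17.7% in the western diet library. Mature dendritic-like cells, with H2-Ob at 19.9 and 10.6 CPM, made up 17.6% and 27.0%. The part of this mix in the lower H2-Ob was not tested. Within cDC2-like cells of that library H2-Ob had a log2 ratio of -0.47 (-0.71 to -0.22) and H2-Oa of -0.44 (-0.64 to -0.24), and 0 of 10 passed 1.5-fold in either direction against 11.3% of all genes. In cDC1-like cells of the library labelled HHcy 1 of 10 passed as higher, Ciita at 278 against 183 CPM, a log2 ratio of 0.61 (0.40 to 0.81), with 6.92% of all genes. The 12 B cell markers summed to 176, 323 and 113 CPM in cDC1-like cells, with none at 0, and their part in the result was not tested. H2-Aa, H2-Ab1 and H2-Eb1 in the same cells had log2 ratios of 0.03 to 0.10.

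Mature dendritic-like cells of the western diet library held more of the presenting chains and less H2-Oa. H2-Eb1 was at 6970 against 4699 CPM in control, a log2 ratio of 0.57 (0.52 to 0.62), and the median over 9 members tested was 0.45 (0.29 to 0.50) from 102 and 76 cells. Of the 9 members, 2 passed 1.5-fold higher, H2-DMb1 at 119 against 55.1 CPM and Ciita at 134 against 83.3 CPM, with 10.8% of all genes. H2-Oa passed as lower, at 21.9 against 50.4 CPM, a log2 ratio of -1.20 (-1.94 to -0.49), with 7.53% of all genes. H2-Ob had too few UMIs to be counted, and its intervals overlapped at 5.78 to 17.7 and 11.6 to 31.9 CPM. The 24 markers of macrophages and monocytes summed to 1004, 940.5 and 3207 CPM in these cells, led by Lyz2 in the western diet library; their part in the result was not tested.

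**Figure D5:**
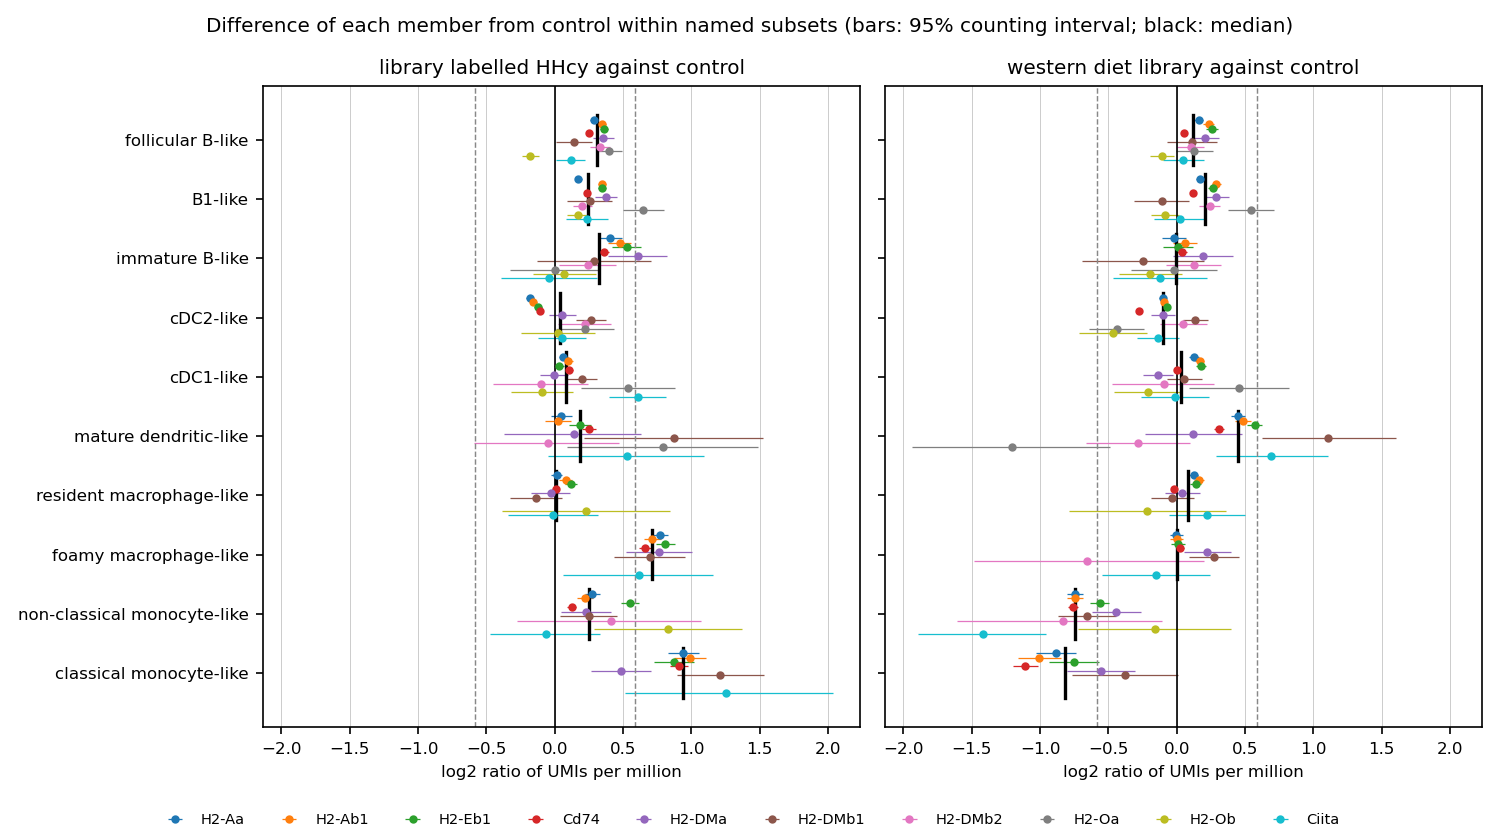
log2 ratio of CPM to the control library for each member with enough counts in 10 subsets, for the library labelled HHcy (left) and the western diet library (right); bars are 95% counting intervals, black lines the medians and dashed lines 1.5-fold. On the right, every member drawn lies below 0 in both monocyte groups, and the medians of resident and foamy macrophage-like cells lie between 0.00 and 0.08.

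Macrophages and monocytes as a whole were somewhat higher in the library labelled HHcy and near control in the western diet library, and their subsets and clusters differed from one another. For the whole class the median log2 ratio to control was 0.27 (0.19 to 0.34) in the library labelled HHcy, against -0.03 over all genes. The intervals of all 10 members lay above 0 there. Of the 10, 2 passed 1.5-fold higher, H2-Oa and H2-Ob at levels read above as background, against 3.47% of all genes. In the western diet library the median was -0.08 (-0.15 to 0.02). There 1 of 10 passed as lower, H2-DMb2 at 9.21 against 17.3 CPM, with 3.91% of all genes. The Lyz1-led cluster, with its high H2-DMb2 level, gave 80 cells to control and 46 to the western diet library. In that library the cluster led by Ccr2, Spon1 and Ptgs2 (153 against 90 cells) had H2-Aa at 3402 against 5164 CPM and a median of -0.61 (-0.77 to -0.48), and 5 of 8 members passed as lower against 5.31% of all genes. The cluster led by Cd72 (697 against 196 cells) had H2-Aa at 4394 against 3287 CPM and a median of 0.24 (0.12 to 0.45), and 1 of 9 passed as higher against 5.66% of all genes.

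Monocytes of the western diet library held less class II than those of control in sum, and the gap was seen at the 90th percentile of cells. In non-classical monocyte-like cells (473 against 619 cells) H2-Aa was at 962 against 1609 CPM, Cd74 at 2623 against 4436 CPM and Ciita at 13.7 (10.2 to 17.96) against 36.4 (31.3 to 42.2) CPM. All 9 members tested had a log2 ratio below 0, with a median of -0.74 (-0.80 to -0.49), and 6 of the 9 passed 1.5-fold lower against 3.46% of all genes. Ciita had the lowest, -1.42 (-1.89 to -0.96). In classical monocyte-like cells (130 against 151 cells) H2-Aa was at 441 against 813 CPM and Cd74 at 1082 against 2335 CPM. The median over the 6 members tested was -0.82 (-0.98 to -0.65), and 4 of the 6 passed 1.5-fold lower against 9.62% of all genes. Cell by cell, the summed presenting chains had a median of 633 against 731 CPM in non-classical and 425 against 445 CPM in classical monocyte-like cells. Their 90th percentile was 4805 against 10758 CPM and 2233 against 4129 CPM. In T cells the cell-by-cell median was 479 against 439 CPM. The classical monocyte medians lay at this background level and the non-classical ones not far above it. These medians had little room to fall, so they cannot show whether the typical cell differed less than the cells at the top.

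The T cell level of H2-Aa, 197 CPM, was 44.7% of the classical and 20.5% of the non-classical monocyte level in the western diet library. With the T cell level subtracted, the medians were -1.46 and -0.82. The 12 B cell markers summed to 91.4 CPM in control and 58.2 CPM in the western diet library in classical monocyte-like cells, and to 101 and 93.997 CPM in non-classical monocyte-like cells. Under the 9 alternative settings tried, the medians stayed below 0, from -1.46 to -0.61 in classical and from -0.85 to -0.57 in non-classical monocyte-like cells.

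Monocytes of the library labelled HHcy were higher than control in sum for most members, but their values depended on how cells were named and on doublets. In classical monocyte-like cells (101 against 151) H2-Aa was at 1560 against 813 CPM and Ciita at 44.8 against 18.8 CPM, the median over 7 members was 0.94 (0.83 to 1.05), and 6 of the 7 passed 1.5-fold higher against 5.6% of all genes. Cell by cell, the summed presenting chains had a median of 585 against 445 CPM and a 90th percentile of 12137 against 4129 CPM. The T cell medians were 377 and 439 CPM, so medians this near background cannot show which cells carried the gap. With doublets kept, the median log2 ratio of the members was -0.26. When each cell was named singly from markers, without clusters, it was 0.32, and without cells of 3 or more B marker UMIs it was 0.65. In non-classical monocyte-like cells the median was 0.25 (0.09 to 0.41), and 1 of 9 passed 1.5-fold higher, H2-Ob at a level read as background, against 3.07% of all genes. That median was -0.04 at a finer clustering and -0.10 when cells were named singly. In the same non-classical cells Ciita was not higher, at 34.9 against 36.4 CPM. Cell by cell, their summed presenting chains had a lower median, 606 against 731 CPM, and a higher 90th percentile, 15701 against 10758 CPM.

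Resident macrophage-like cells had nearly the same levels in all 3 libraries. H2-Aa was at 4421, 4466 and 4814 CPM and Cd74 at 9676, 9724 and 9534 CPM. Over the 8 members tested the median log2 ratio of the library labelled HHcy was 0.01 (-0.10 to 0.12), and that of the western diet library was 0.08 (-0.05 to 0.17). None of the 8 passed 1.5-fold in either direction in either library, against 8.93% and 7.29% of all genes.

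Foamy macrophage-like cells, marked by Gpnmb and Trem2, held more class II in the library labelled HHcy. H2-Aa was at 5632 against 3301 CPM in control, the median over 7 members was 0.71 (0.62 to 0.88), and 7 of the 7 passed 1.5-fold higher, against 10.4% of all genes. Only 37 cells carried that value, and 5 or more presenting-chain UMIs of 1000 were found in 62.2% of them (44.8% to 77.5%) against 49.6% (40.0% to 59.1%) in control, so the shares overlapped. In the western diet library the median over 8 members was 0.00 (-0.04 to 0.13), and 1 of 8 passed as lower, H2-DMb2 at 8.18 against 12.9 CPM with an interval of the log2 ratio that held 0 (-1.48 to 0.20), against 6.11% of all genes.

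Of 17 genes listed as regulators of Ciita or parts of the factor complex on the X and Y boxes, 5 passed 1.5-fold in B cells of the library labelled HHcy, against 11.8% of all genes in either direction. There 1 was higher, Ifngr2, a chain of the interferon gamma receptor, with a log2 ratio of 0.64, and 4 were lower, with 7.74% of all genes. These were Nfya (-0.81), a subunit of NF-Y, Irf1 (-0.76), an interferon-induced activator, Socs1 (-0.63), a brake on cytokine signalling, and Prdm1 (-1.01), the repressor of Ciita in plasma cells. Prdm1 was also lower in B cells of the western diet library (15.1 against 27.2 CPM, -0.85), the 1 of 17 that passed there, with 5.5% of all genes in either direction. These B cell ratios are for the whole class, in which B1-like cells made up 47.0%, 16.1% and 34.7%. The part of that mix in them was not tested. Prdm1 was lower in macrophages and monocytes of both libraries, at 39.1 and 31.2 against 63.9 CPM. Conventional dendritic cells had Prdm1 at 3.80 and 6.58 against 15.3 CPM. In macrophages and monocytes the library labelled HHcy had 1 listed gene higher, Pax5 at a low 4.28 against 2.29 CPM, and 1 lower, with 7.18% of all genes in either direction, and the western diet library 0 higher and 1 lower, with 7.93%. Of the 16 tested in conventional dendritic cells, 1 was higher and 2 were lower (Irf1 and Prdm1) in the library labelled HHcy, with 9.72% of all genes, and 0 and 1 in the western diet library, with 10.3%. The genes of the RFX complex, Rfx5, Rfxap and Rfxank, stayed within 1.5-fold in B cells and in macrophages and monocytes, and in conventional dendritic cells Rfxap was higher in the library labelled HHcy (38.5 against 24.3 CPM, 0.66).

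Among 8 genes of class II peptide supply and turnover, 2 of the 7 tested passed 1.5-fold higher in conventional dendritic cells of the western diet library, with 4.86% of all genes. Ctsl, a cathepsin, was at 45.1 against 20.9 CPM and Lgmn, an asparaginyl endopeptidase, at 204 against 109 CPM. In that library the mix of dendritic subsets and the macrophage markers in mature dendritic-like cells differed from control, as given above. Their part in these values was not tested. Ctsl was also higher in B cells of the western diet library, at 14.4 against 8.09 CPM, the 1 of 7 tested that passed, with 2.63% of all genes. None passed in macrophages and monocytes, nor in B cells or conventional dendritic cells of the library labelled HHcy. Of 9 genes of class I presentation, 0 passed 1.5-fold in either comparison in B cells, in macrophages and monocytes or in conventional dendritic cells, where 5.5% to 11.8% of all genes passed in either direction. Their median log2 ratio in B cells of the library labelled HHcy was 0.09, beside 0.58 for the class II members.

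Across 54 pairs of cell group and library, the genes most like the mean of H2-Aa, H2-Ab1, H2-Eb1 and Cd74 outside the members were Cd83, which slows class II turnover (Pearson's r of 0.909 on log values), Plekho1 (0.867) and Fgd2 (0.828), out of 6977 genes. Ciita had 0.935 with the same mean, H2-DMb1 0.901 and H2-DMa 0.899, while H2-DMb2 (0.533), H2-Oa (0.512) and H2-Ob (0.475) followed it less. The genes most like Ciita outside the members were Gdi2 (0.858), Cd83 (0.849) and Fgd2 (0.813), out of 12446 genes. These points share libraries and depth, and groups of 1 library are not independent of each other, so the values are descriptions.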

How the data were processed

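Single-cell RNA was measured in 3 libraries, 1 per group. The authors deposited filtered matrices of UMI counts per gene and barcode, not normalized; the file headers name Cell Ranger 4.0.0, whereas the submitters' processing notes name Cell Ranger 2.2.0 and mm10. The members, gene lists and subset alternatives were chosen with earlier results of these data known. Cells with at least 200 genes and at most 10% mitochondrial UMIs were kept, and barcodes with markers of more than 1 of 5 lineages were removed as doublets. Cells were clustered in Python 3.11.15 (scikit-learn 1.9.0, leidenalg 0.10.2; 2000 variable genes, 30 components, 20 neighbours, resolution 1) without the members, and named from fixed marker lists; the limits of the naming rule were set after seeing the data. Barcodes present in more than 1 library numbered 42, 45 and 41 and were left out in 1 alternative. In the control library, the library labelled HHcy and the western diet library, 260, 301 and 353 cells stayed unnamed.

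UMIs were summed per group of cells and library and divided by the group's total. Levels have exact Poisson intervals, shares exact Clopper-Pearson intervals, and ratios conditional binomial intervals, all at 95% and for counting error only; the interval code was tested on simulated data. A gene entered a ratio with 50 UMIs in the comparison, and a group with 25 cells. With 1 library per group no test was run. A count of 0 allows up to 3 counts. The genes named are the members; of the listed genes those past 1.5-fold in a cell class; and the genes most like the members. Gene positions came from the GENCODE annotation of GRCm38 and promoters from RefSeq. Depth ran from 6634.5 to 8071.5 median UMIs per cell used.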

Additional observations from a re-analysis of the deposited data

Results flagged for a closer look

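The members' difference between the western diet library and control ran in opposite directions in different cells. The median log2 ratio was -0.82 in classical monocyte-like cells and -0.74 in non-classical monocyte-like cells, with every member tested below 0 in both, and 0.45 in mature dendritic-like cells, where 7 of 9 members tested were above 0. An unnamed macrophage cluster led by Ccr2 was also lower, at -0.61, and one led by Cd72 higher, at 0.24. With 1 library per group the difference between these cell groups was not tested. The macrophage markers summed higher in the mature dendritic-like cells of the western diet library, as given above.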

How the results depend on the processing

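No paired analysis was possible because each group had 1 library. For B cells in the library labelled HHcy, the median log2 ratio of 0.58 became 0.52 as a mean over cells, 0.62 with median-of-ratios scaling, 0.62 with the T cell level subtracted and 0.26 with the same mix of sub-clusters; in the western diet library 0.21 became 0.16 as a mean over cells and 0.16 with the same mix. For macrophages and monocytes in the library labelled HHcy, 0.27 became 0.19 with up to 20% mitochondrial UMIs, 0.35 as a mean over cells, 0.38 thinned to 1000 UMIs and 0.36 without cells of 10 or more Apoe UMIs; in the western diet library -0.08 became 0.01794 with doublets kept. For conventional dendritic cells 0.06 became -0.0093 with median-of-ratios scaling in the library labelled HHcy, and -0.03 became -0.13 thinned in the western diet library. Except for those of macrophages and monocytes with doublets kept and of dendritic cells under median of ratios, class medians kept their sign under all alternatives run. The cause of these shifts was not tested, beyond the mix itself.

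Among subset medians, whose alternatives were added after seeing the data, that of classical monocyte-like cells in the library labelled HHcy reversed to -0.2577 with doublets kept, and that of non-classical monocyte-like cells to -0.03767 at resolution 2 and -0.1012 when cells were named singly from markers. In the western diet library both stayed below 0 under 9 alternatives. The median of foamy macrophage-like cells in that library, 0.00, ran from -0.20 to 0.07 under its alternatives. Medians near 0 in resident macrophage-like cells of both libraries and in immature B-like cells of the western diet library also took both signs. Depth limits H2-O and H2-DMb2 in myeloid cells and Ciita in monocytes, where few UMIs were counted.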
